A study of Mus musculus with 7 samples.

Results

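Cathepsins are the peptidases of the endosome and lysosome, and legumain is the asparagine-specific protease that works beside them. The 10 genes described here are Ctsa, Ctsb, Ctsc, Ctsd, Ctse, Ctsh, Ctsl, Ctss, Ctsz and Lgmn, taken by symbol from the platform annotation, and all 10 of them had 1 probe set each among the 25428 of the array. They were read in conventional type 1 dendritic cells (cDC1) sorted from mouse lung, on 7 Affymetrix Mouse Gene 2.0 ST arrays. Tumor-bearing lungs, written KP(l), gave 3 arrays. These C57/BL6 mice had received 100000 cells of KP, a mouse lung tumor cell line, into the tail vein, and their lungs were taken at day 28. Control lungs, written nLung, gave 4 arrays and came from healthy C57/BL6 mice. Controls of the study received PBS in place of KP cells. Each array held cDC1 pooled from 2 to 3 mice, tumors came from 1 transplanted line, and cells enriched on CD11c beads were sorted by staining for MHC class II, CD11c, CD11b, CD103 and the macrophage marker SiglecF.

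A dendritic cell has to cut what it engulfs into peptides without destroying them. Cathepsin S and, in other cell types, cathepsin L remove the last part of the invariant chain from MHC class II, while legumain, cathepsin D and the exopeptidases trim antigen and one another. cDC1 are known for mild endosomes with little proteolysis, which preserves antigen for presentation to CD8 T cells, whereas macrophages hold much more lysosomal protease. These mRNAs therefore bear on how cDC1 of a tumor-bearing lung handle their cargo, although an mRNA level does not give protease activity.

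Values are expression on the linear scale, that is 2 to the power of the deposited log2 value, in arbitrary units. Probe sets differ in how well they bind, so levels were compared between arrays and not between genes. Differences are KP(l) minus nLung on the log2 scale from limma over all probe sets, and a gene counted as called at a Benjamini-Hochberg adjusted p of 0.05 or less with a fold change of 2 or more. Exact permutation tests of single genes, two-sided over all 35 assignments of the 7 arrays, cannot give a p under 0.0286.

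The median log2 value of an array was 3.49 to 3.57, and Pearson's r between arrays, across genes, was 0.942 to 0.978. The cDC1 label was checked on 11 markers, whose summed expression was 9328 to 12084 in KP(l) against 10172 to 12025 in nLung. Of these 11 genes, 3 had a difference above 0 and 8 below 0, with Itgae higher and Clec9a and Cd207 lower at a nominal p (limma, not adjusted) below 0.05. Cd207 stood at 94.8, 43.7 and 236 in KP(l) replicates 1 to 3 against 268 to 507 in nLung, with no overlap, and Clec9a at 1104 to 1494 in KP(l) against 1494 to 1741 in nLung. Markers of other cells varied between arrays. Of 16 measured alveolar macrophage markers, 14 had a difference above 0 and 8 were 2-fold or more higher in KP(l). At that nominal p, 1 was higher and 0 were lower. Their summed expression was 2724, 2041 and 467 in KP(l) replicates 1 to 3, against 1814, 529, 272 and 512 in nLung replicates 1 to 4. Siglecf, the gene of the sorting marker SiglecF, stood at 107, 15.8 and 21.1 in KP(l) replicates 1 to 3, against 15.1 to 26.8 in nLung. Of 18 interstitial macrophage and monocyte markers, 12 had a difference above 0 and 6 below 0, 6 were 2-fold or more higher, and 4 were higher and 0 lower at that nominal p. Their sums of 2640.5 to 3781 in KP(l) against 2502 to 3030.4 in nLung were mostly Ccr2, at 1589 to 2067 in KP(l) against 1963 to 2324 in nLung. The mean of their centred log2 values, which weights each gene equally, was 1.36, 0.30 and -0.35 in KP(l) replicates 1 to 3, against -0.04, -0.35, -0.46 and -0.46 in nLung replicates 1 to 4, so that KP(l) replicates 1 and 2 lay above every nLung array. Of 11 epithelial and tumor markers, the sum was 279.7 to 521 in KP(l) against 2568 in nLung replicate 1 and 435 to 813 in the other nLung arrays. The neutrophil gene S100a8 stood at 834 in KP(l) replicate 1 and at 5.84 or less in the other 6 arrays. RMA gives no value of 0, so no marker was absent in that sense. In RNA of sorted populations, more cells of another type and more RNA per cell cannot be told apart.

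Of the 10 genes, 4 were 2-fold or more higher in KP(l) cDC1 and 0 were 2-fold or more lower. These 4 were Ctsa, at 9.32-fold over nLung, Ctsl at 4.13-fold, Ctsd at 4.003-fold and Lgmn at 2.93-fold. Among all probe sets, 0.979% were 2-fold or more higher and 0.865% were 2-fold or more lower. The other 6 genes differed by less than 2-fold, and 9 of the 10 lay above 0, with a median log2 fold change of 0.42 against 0.02 for all probe sets. Of all probe sets, 54.6% lay above 0. Mean signal was above the median of the means of all probe sets for 9 of the 10 genes. None was called by limma at the adjusted threshold, which 0% of all probe sets passed. At a nominal p below 0.05, higher expression was found for 2 of the 10, Ctsa and Lgmn, and lower expression for 0, beside 2.62% and 2.24% of all probe sets in these directions. The same 2 genes were those whose KP(l) and nLung arrays did not overlap, and both were higher in KP(l), a pattern seen in 2.12% of all probe sets, with 1.72% the other way. With KP(l) replicate 3 left out the genes higher at this nominal p were Ctsa, Ctsd, Ctsl and Lgmn, and with nLung replicate 1 left out they were Ctsa, Ctsd, Ctss and Lgmn.

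**Figure D1:**
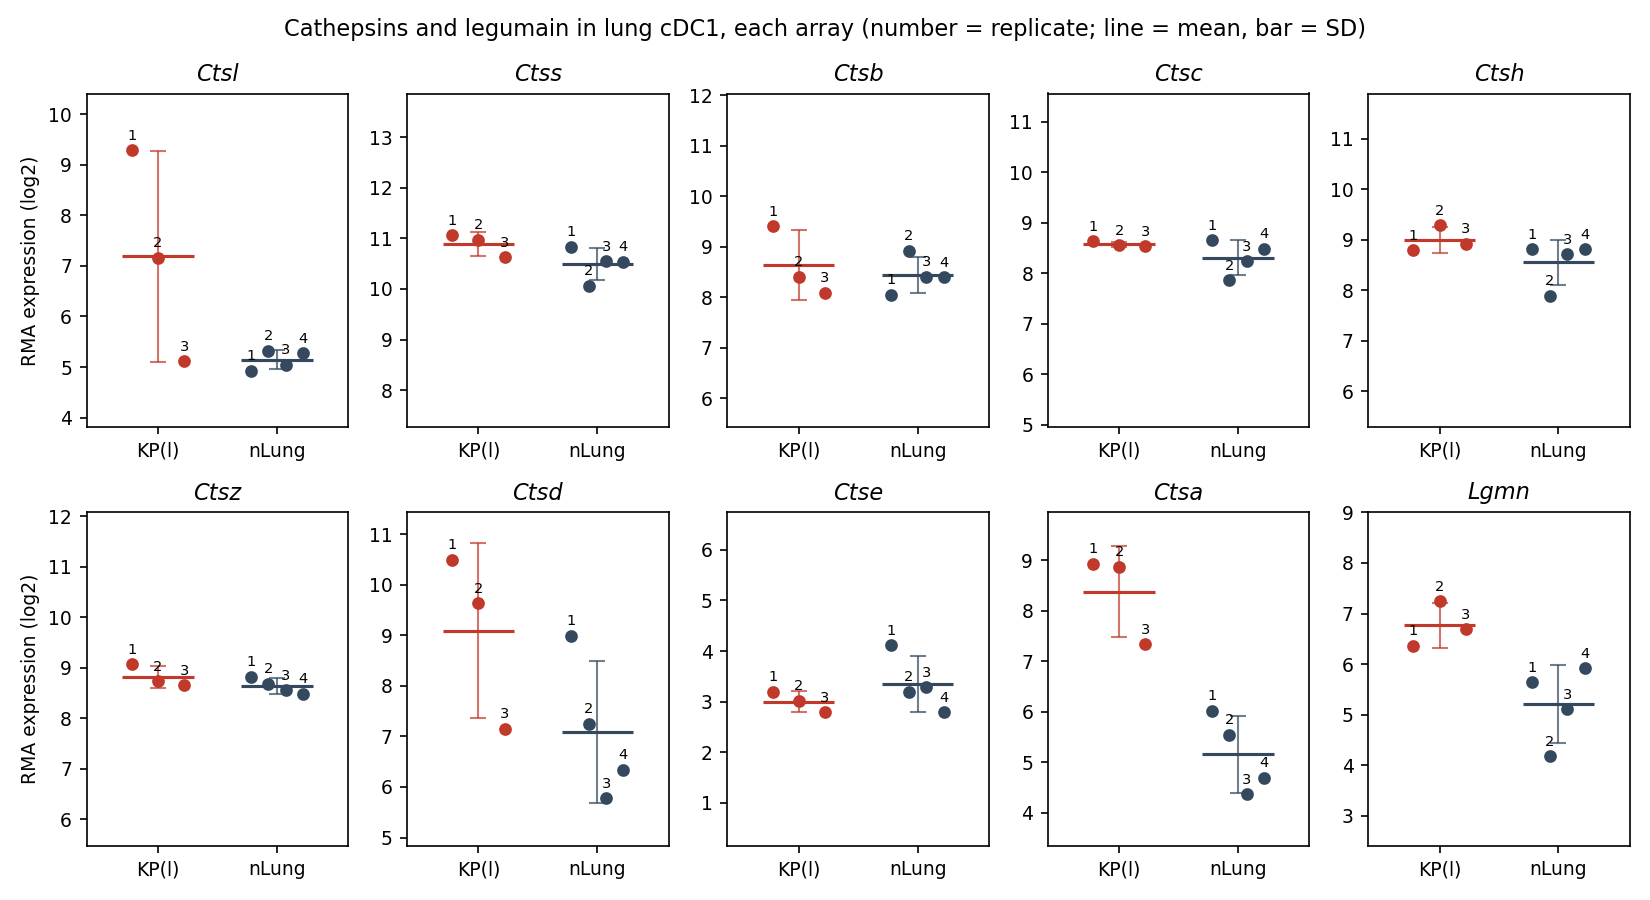
RMA expression (log2, y axis, every panel spanning the same number of log2 units) of each gene in the 3 KP(l) arrays at the left and the 4 nLung arrays at the right, with replicate numbers, group means as lines and SDs as bars. Ctsa and Lgmn have no overlap between groups, while Ctsl and Ctsd spread widely among the KP(l) arrays.

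The start regions of the genes are shown because lysosomal genes are known to share the CLEAR element, a palindrome around the letters TCACGTGA that is bound by TFEB and related factors. Windows of 250 bases before to 50 bases after each start site, from RefSeq on GRCm38.p6, were held for 7 of the 10 genes, with 2 windows each for Ctsa and Lgmn and 1 for the others. Ctsb, Ctse and Ctsh were not matched. The letters CACGTG, which lie inside the longer palindrome and read the same on both strands, occurred in the windows of 4 genes. These were Ctsa, Ctsd, Ctsl and Lgmn, and not Ctsc, Ctss or Ctsz. The same 4 genes were 2-fold or more higher, but Ctsb, Ctse and Ctsh, which were not, had no window to search. Ctsa and Lgmn matched only in their second window, and the first window of each held 0 matches. With 2 windows each, they also had more sequence to search than Ctsc, Ctss or Ctsz. Only Ctsa and Ctsd held the longer form TCACGTGA. A link between these letters and expression was not tested. Over all windows 7.15% held CACGTG and 0.974% held TCACGTGA, and over all genes with a window these shares were 8.09% and 1.12%. The motif was chosen after the expression values were seen, and a match is a description of letters. Below, 30 bases around the matches are printed 5′ to 3′ on the gene's strand with the match in capitals. They lie at chr2:164833758-164833787 (plus strand, the second Ctsa start site), chr7:142387908-142387937 (minus strand, Ctsd), chr12:102439124-102439153 (minus strand, the second Lgmn start site) and chr13:64370739-64370768 (minus strand, Ctsl).
Ctsa: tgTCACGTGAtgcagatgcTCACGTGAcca
Ctsd: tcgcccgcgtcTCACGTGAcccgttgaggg
Lgmn: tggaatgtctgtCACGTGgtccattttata
Ctsl: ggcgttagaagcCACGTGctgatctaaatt
Ctsa had the longer palindrome at both of its matches, the first beginning 13 bases before the start site and the other at base 5 after it. Ctsd had it 99 bases upstream, and a second, shorter match 245 bases upstream. The whole Ctsd stretch from 250 bases upstream to the start site, at chr7:142387828-142388077 on the minus strand, places the pair, again in capitals.
Ctsd upstream: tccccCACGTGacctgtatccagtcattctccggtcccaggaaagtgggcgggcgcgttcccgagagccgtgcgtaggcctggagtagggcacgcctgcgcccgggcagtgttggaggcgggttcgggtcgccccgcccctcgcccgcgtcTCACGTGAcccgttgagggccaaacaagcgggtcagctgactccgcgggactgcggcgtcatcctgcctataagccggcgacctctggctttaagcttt
Lgmn and Ctsl had the short form alone, 49 and 236 bases upstream of the start sites used for these windows. Both stretches, and that of Ctsa, lie inside the gene bounds given below, since these start sites are internal to the genes. Only the Ctsd stretches lie outside the bounds of their gene.

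Cathepsin A is a serine carboxypeptidase that also holds the sialidase NEU1 and the galactosidase GLB1 in a stable lysosomal complex. Its gene, Ctsa, lies on chromosome 2 (GRCm38.p6, bases 164832872 to 164841032). Expression of Ctsa was 487, 469 and 162 in KP(l) replicates 1 to 3, against 65.0, 46.6, 20.8 and 25.9 in nLung replicates 1 to 4. The groups did not overlap, and the lowest KP(l) value was 2.49-fold the highest nLung value. The means were 373 ± 183 (SD, n = 3 arrays) in KP(l) and 39.6 ± 20.3 (SD, n = 4 arrays) in nLung. The log2 fold change was 3.22 (standard error 0.55, 95% interval 1.91 to 4.53, limma adjusted p = 0.735 over all probe sets), and the exact permutation test gave an unadjusted p of 0.0286. The arrays were also read as a pair of sets, a split chosen with earlier results of these data known. The difference was 3.12 within replicates 1 and 2 of both groups and 2.80 within the other 3 arrays, which are KP(l) replicate 3 and nLung replicates 3 and 4. In KP(l) replicate 3 the summed alveolar macrophage marker expression was 467 and Ctsa was 162. In nLung replicate 1 these values were 1814 and 65.0. The interstitial macrophage gene Apoe stood at 284, 218 and 60.4 in KP(l) replicates 1 to 3, against 30.9 to 78.8 in nLung. Apoe is among the 4 genes of its list with a nominal p (limma, not adjusted) below 0.05 and was chosen after its values were seen. Of the 18 genes of that list, 6 had differences below 0. The part of macrophage RNA in the Ctsa difference was not tested. Neu1, the gene of the sialidase, had a log2 fold change of -0.01 (95% interval -0.42 to 0.39), and Glb1 one of -0.20 (95% interval -0.84 to 0.44).

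Legumain cleaves after asparagine, opens antigens for further processing and matures several cathepsins. Its gene, Lgmn, is on chromosome 12 (GRCm38.p6, bases 102394082 to 102439728). Expression of Lgmn was 82.2, 151 and 103 in KP(l) replicates 1 to 3, against 49.8, 18.04, 34.5 and 60.6 in nLung replicates 1 to 4. The groups did not overlap, but the gap was narrow, the lowest KP(l) array lying 1.36-fold above the highest nLung array. The means were 112 ± 35.6 (SD, n = 3 arrays) in KP(l) and 40.8 ± 18.5 (SD, n = 4 arrays) in nLung, a log2 fold change of 1.55 (standard error 0.44, 95% interval 0.50 to 2.61, limma adjusted p = 0.912). The exact permutation p was 0.0571. The difference was 1.90 within replicates 1 and 2 and 1.17 within the other arrays. Among KP(l) arrays Lgmn was lowest in replicate 1, and its relation to the macrophage markers was not tested.

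Cathepsin D is the main aspartic endopeptidase of the lysosome. Its gene, Ctsd, lies on chromosome 7 (GRCm38.p6, bases 142375910 to 142387827). Expression of Ctsd was 1444, 795 and 142 in KP(l) replicates 1 to 3, against 509, 153, 55.1 and 81.3 in nLung replicates 1 to 4. The groups overlapped, since nLung replicates 1 and 2 lay above KP(l) replicate 3. The means were 794 ± 651 (SD, n = 3 arrays) in KP(l) and 199.7 ± 211 (SD, n = 4 arrays) in nLung, and the log2 fold change of 2.00 (standard error 1.03, 95% interval -0.45 to 4.45, limma adjusted p = 0.912) was within the spread of the arrays. It became 1.30 when KP(l) replicate 1 was dropped, 2.97 when KP(l) replicate 3 was dropped and 2.63 when nLung replicate 1 was dropped. Its within-group SD exceeded that of 99.6% of probe sets. The 3 arrays highest in Ctsd, which were KP(l) replicates 1 and 2 and nLung replicate 1, were also the 3 with the highest summed alveolar macrophage markers. The part of such cells in the Ctsd difference was not tested.

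Cathepsin L is an endopeptidase of the papain family. Its gene, Ctsl, lies on chromosome 13 (GRCm38.p6, bases 64361890 to 64370772). Expression of Ctsl was 627, 143 and 34.7 in KP(l) replicates 1 to 3, against 30.5, 40.0, 33.1 and 38.7 in nLung replicates 1 to 4. KP(l) replicates 1 and 2 stood above all nLung arrays, and KP(l) replicate 3 lay among them. The means were 268 ± 315 (SD, n = 3 arrays) in KP(l) and 35.6 ± 4.54 (SD, n = 4 arrays) in nLung, and the log2 fold change was 2.05 (standard error 0.88, 95% interval -0.06 to 4.16, limma adjusted p = 0.912). The log2 ratio of the linear means was 2.92. Leaving out KP(l) replicate 1 gave 0.996 and leaving out KP(l) replicate 3 gave 3.08, with 3.10 within replicates 1 and 2 and -0.04 within the other arrays. On the log2 scale the SD among KP(l) arrays was 11.2 times that among nLung arrays. Ctsl was lowest in nLung replicate 1, whose summed alveolar macrophage marker expression was 1814. Of the interstitial macrophage and monocyte list, C1qb stood at 277, 128 and 22.8 in KP(l) replicates 1 to 3 against 19.1 to 34.4 in nLung, and Gpnmb, a gene of lipid-laden macrophages, at 611, 168 and 23.6 in KP(l) against 7.05 to 30.3 in nLung. Both are among the 4 genes of that list with a nominal p below 0.05 and were chosen after their values were seen, while 6 of its 18 genes had differences below 0. The part of alveolar or interstitial macrophages in the Ctsl values was not tested.

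**Figure D2:**
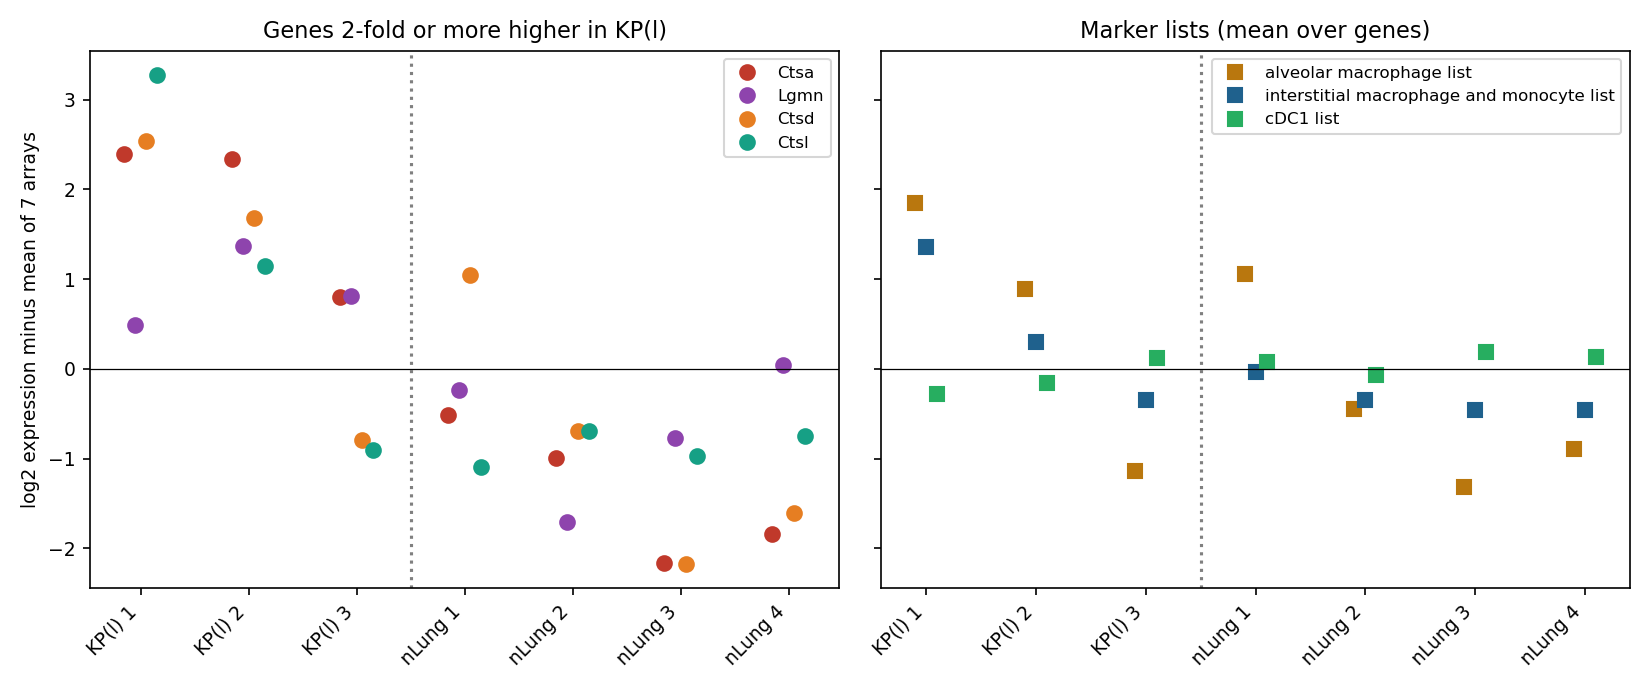
Log2 expression minus the mean of the 7 arrays, by array, for the 4 genes 2-fold or more higher in KP(l) at the left, and the same quantity averaged over the genes of 3 marker lists at the right. Ctsd and the alveolar macrophage list are both high in KP(l) 1, KP(l) 2 and nLung 1, Ctsl is high in KP(l) 1 and 2 alone, and Ctsa and Lgmn are above all nLung arrays in KP(l) 3 as well.

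Cathepsin S is the protease that completes invariant chain removal in dendritic cells. Expression of its gene, Ctss, was 2145, 2014 and 1579.9 in KP(l) replicates 1 to 3, against 1829, 1073, 1493 and 1485 in nLung replicates 1 to 4. KP(l) replicates 1 and 2 were the highest of the 7 arrays, and KP(l) replicate 3 lay below nLung replicate 1. The log2 fold change was 0.39 (standard error 0.20, 95% interval -0.09 to 0.88, limma adjusted p = 0.912), an interval that stayed below 2-fold in both directions. Cd74, the gene of the invariant chain itself, differed by -0.09 (95% interval -0.30 to 0.12).

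The exopeptidases of the papain family differed by less than 2-fold, and their groups overlapped. Cathepsin C, which activates granule serine proteases by trimming their ends, had Ctsc expression of 396, 375 and 372 in KP(l), the tightest group of any of the 10 genes, against 403, 232, 302 and 358 in nLung. The difference was 0.26 (95% interval -0.19 to 0.72). Cathepsin H is an aminopeptidase, and Ctsh stood at 442, 627 and 483 in KP(l) against 448, 237, 421 and 448 in nLung. Only nLung replicate 2 was low, and the difference of 0.44 (95% interval -0.18 to 1.07) became 0.22 without it. Cathepsin Z is a carboxypeptidase, and Ctsz stood at 539.6, 424 and 404 in KP(l) against 454, 413, 377 and 359 in nLung, a difference of 0.18 (95% interval -0.15 to 0.51). Cathepsin B acts as both a dipeptidyl carboxypeptidase and an endopeptidase. Ctsb stood at 679.5, 340.1 and 273 in KP(l) and at 266, 485, 340.1 and 337 in nLung, a difference of 0.19 (95% interval -0.64 to 1.02) that was -0.19 without KP(l) replicate 1, the highest array. For Ctsc and Ctsz, as for Ctss, the interval left no room for a 2-fold difference, while for Ctsb and Ctsh it reached just past 2-fold higher.

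Cathepsin E is an aspartic protease of endosomes, and Ctse was the one gene of the 10 with a difference below 0. Its signal was low, with mean log2 values of 3.00 in KP(l) and 3.35 in nLung. Both lay below 3.54, the median of the means of all probe sets. Ctse stood at 9.16, 8.07 and 6.92 in KP(l), against 17.3, 9.16, 9.75 and 6.94 in nLung, so that nLung replicate 1, the array with the highest epithelial marker sum, alone was high. The part of epithelial cells in the Ctse values was not tested. The difference was -0.35 (95% interval -1.07 to 0.38), and -0.09 without that array. A value of 9.16 for Ctse, of 340.1 for Ctsb and of 448 for Ctsh was shared by a pair of arrays, since median polish and quantile normalization can return identical values.

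**Figure D3:**
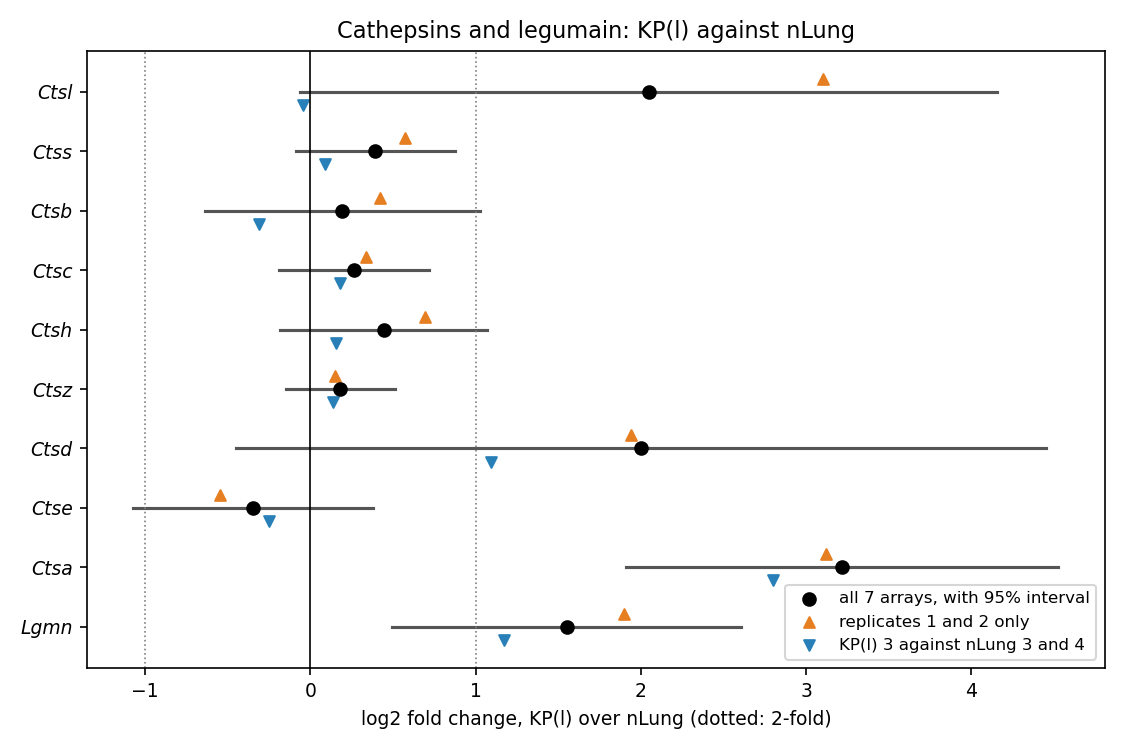
Log2 fold change of KP(l) over nLung (x axis) for each gene, over all 7 arrays with its 95% interval from limma (black), within replicates 1 and 2 (orange) and for KP(l) replicate 3 against nLung replicates 3 and 4 (blue). The intervals of Ctsa and Lgmn lie above 0, and Ctsl falls to -0.04 in the second set of arrays.

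The genes were also compared with one another across arrays. Profiles were centred on their own mean and compared by root mean square difference over the 7 arrays, which gives small values to genes that vary little. The nearest pair was Ctsc and Ctss, at 0.141 log2 units, followed by Ctsc and Ctsh at 0.220 and Ctsh and Ctss at 0.224. All 3 of these genes were lowest in nLung replicate 2. Of the 4 genes with 2-fold differences, Ctsa and Ctsd were nearest, at 0.891, and Ctsd and Lgmn farthest, at 1.43. KP(l) replicate 1 was the highest array for 6 of the 10 genes, and nLung replicate 2 the lowest for 4. Over all probe sets, the profiles nearest to Ctsd belonged to Pld3 (0.497), which encodes an endolysosomal exonuclease, Cybb (0.505), the catalytic subunit of the phagocyte oxidase, and Mrc1 (0.509), the mannose receptor and a marker of alveolar macrophages. Those nearest to Ctsa belonged to Cd300lf (0.657), a receptor for phosphatidylserine, Swsap1 (0.761), a DNA repair gene, and Batf (0.766), a transcription factor. Cd300lf stood at 110, 96.2 and 40.2 in KP(l) replicates 1 to 3 against 26.8, 18.3, 16.9 and 12.6 in nLung replicates 1 to 4.

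Cathepsins and relatives outside the 10 genes gave 16 probe sets. None was called, a nominal p below 0.05 was reached by 1 upward and 0 downward, and their median log2 fold change was 0.08. The higher gene was Tinagl1, a secreted relative of cathepsin B without protease activity, at 0.40 (standard error 0.14, limma adjusted p = 0.912). Ctsk, for the collagen-cleaving cathepsin K of osteoclasts and alveolar macrophages, stood at 69.9, 64.3 and 7.98 in KP(l) against 21.9, 12.0, 8.83 and 8.24 in nLung. Ctsk belongs to the alveolar macrophage list as well, and like Ctsd it was highest in KP(l) replicates 1 and 2 and nLung replicate 1.

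Cystatins block cathepsins of the papain family and, in part, legumain. Of 17 measured inhibitors, 0 were called, with 1 upward and 0 downward at a nominal p below 0.05, and a median log2 fold change of 0.03. The 1 gene was Serpina3g, which encodes a mouse serpin of the cytosol and nucleus that inhibits cathepsins. Expression of Serpina3g was 67.5, 92.2 and 162 in KP(l) replicates 1 to 3, against 15.2, 36.1, 15.4 and 13.2 in nLung replicates 1 to 4. The groups did not overlap, and KP(l) replicate 3, the array with the lowest Ctsa, Ctsd and Ctsl of its group, was the highest. The log2 fold change was 2.45 (standard error 0.44, limma adjusted p = 0.735), and the exact permutation test gave an unadjusted p of 0.0286. Serpina3g has close neighbours in the Serpina3 cluster, and how far its probes are specific was not tested. Cst3, for the secreted inhibitor cystatin C, differed by -0.05 (95% interval -0.22 to 0.13), and Cstb, for the cytosolic inhibitor stefin B, by 0.90 (95% interval -0.22 to 2.02).

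A further list held 17 genes for proteins that the cathepsins hold, cleave or activate, or that work beside them. Of these genes, 0 were called, with 2 upward and 0 downward at a nominal p below 0.05, and a median log2 fold change of -0.01. Ifi30, the lysosomal thiol reductase GILT, which opens disulphide bonds before the proteases cut, had expression of 1461, 1881 and 1729.7 in KP(l) against 952, 977, 982 and 1239 in nLung, a log2 fold change of 0.71 (standard error 0.14, limma adjusted p = 0.816). Tlr7, an endosomal receptor that needs cleavage by such proteases, differed by 0.76 (standard error 0.27), with 7.48, 7.93 and 4.33 in KP(l) against 4.33, 4.75, 3.12 and 3.12 in nLung, so that the groups overlapped. Its signal was low, with mean log2 values of 2.67 in KP(l) and 1.91 in nLung, below the median of 3.54 for the means of all probe sets. Tlr9, cleaved in the same way as Tlr7, differed by -0.04 (95% interval -0.24 to 0.16), and Psap, the precursor of the saposins, by -0.01 (95% interval -0.24 to 0.23).

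Delivery and control of these enzymes were read from 3 further lists. Of 18 genes for mannose 6-phosphate tagging and sorting, 0 passed a nominal p below 0.05 in either direction. M6pr, a mannose 6-phosphate receptor, differed by 0.13, and Scarb2, the receptor that carries glucocerebrosidase, by -0.16. Of 11 lysosomal peptidases of other families, 1 passed upward and 0 downward, Dpp7, a dipeptidyl peptidase, at 0.85 (standard error 0.35, limma adjusted p = 0.912), or 0.46 without KP(l) replicate 1. Of 12 genes of the TFEB family and its nutrient-sensing regulators, 0 passed in either direction, with Rraga at 0.09 and Rragc at -0.49. The medians of these 3 lists were 0.11, 0.06 and 0.07, and 0 of their genes were called.

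**Figure D4:**
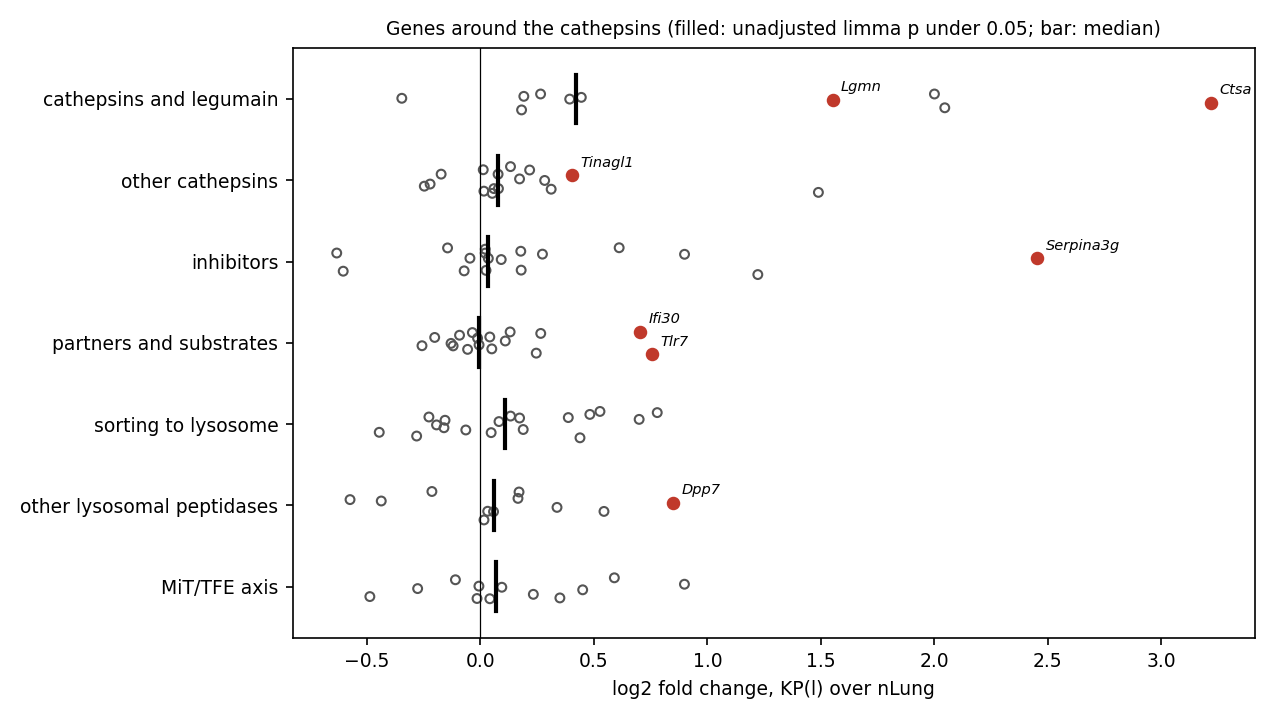
Log2 fold change of KP(l) over nLung (x axis) for the 10 cathepsin and legumain genes and 6 lists of genes around them, 1 point per gene, with the list median as a bar and genes at an unadjusted limma p under 0.05 filled and labelled by name. Only the cathepsins and legumain have a median above 0.11, and Serpina3g stands apart among the inhibitors.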

How the data were processed

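The deposited values are log2 expression that the authors made by RMA (background correction, quantile normalization and median polish) in the affy package, with probe sets regrouped by Entrez gene (BrainArray). Labels name NuGEN amplification and the methods an Affymetrix 3′IVT protocol. RMA pulls arrays to 1 distribution, which can shrink differences at low signal. No probe set was left out.

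KP(l) (n = 3) was compared with nLung (n = 4) in limma 3.58.1 (R 4.3.3), lmFit and eBayes, with Benjamini-Hochberg adjustment over 25428 probe sets. SAM, the method of the study, was rewritten over all 35 assignments as an alternative. The other alternatives were an intensity trend, array weights, renewed quantile normalization, median centring, a filter on dim probe sets, each array left out, and blocks for replicate number and array set. On simulated arrays with 200 genes changed, limma called 17.4%, 68.2% and 82.8% of log2 changes of 1, 2 and 3. The changed genes all lay above the median mean, noise was normal and independent, and a call also needed an estimated fold of 2. The within-group SDs of Ctsa, Ctsd, Ctsl and Lgmn exceeded those of 91.55% (Lgmn) to 99.6% (Ctsd) of probe sets. These shares therefore need not hold for them. The number of arrays limits precision, and p-values measure the spread between pools of mice.

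All 10 genes are named. Of each list around them, up to 4 genes at a nominal p under 0.05 were named, or the 2 of highest mean, and the 3 nearest profiles of the 2 genes of widest range. Others were chosen after their values were seen. The genes and lists were chosen with earlier results of these data known. Sequences are from RefSeq (GRCm38.p6). Figures were drawn with matplotlib 3.10.9.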

Additional observations from a re-analysis of the deposited data

Results flagged for a closer look

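Ctsh in nLung replicate 2 lay far from the other arrays of its group. It stood at 237, against 421 to 448 in nLung replicates 1, 3 and 4, and the gap was 0.902 of the range of the group on the log2 scale. Of the 10 genes tested in this way it was the 1 past the 95% limit of Dixon's test, which chance passes in about 1 of 20 groups.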

How the results depend on the processing

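The number of probe sets called was 0 in limma and under every alternative, the rewritten SAM and a 1.5-fold threshold included. The smallest q of the rewritten SAM, over all 35 assignments, was 0.141. The study itself reported differentially expressed transcripts between these groups from its own SAM, at an FDR of 0.05 or less and 2-fold or more. The reason for this difference was not tested. A nominal (unadjusted) p below 0.05 was reached by 1236 probe sets, 785 when only probe sets above the median mean were tested (fewer were tested), 1515 with SAM, and 970 to 1815 with 1 array left out. Of the 10 genes, 2 were higher at this p, and 2 to 4 with 1 array left out, 4 of them without KP(l) replicate 3 and 4 without nLung replicate 1. None was lower under any alternative. The count 2-fold or more higher, an addition made after the data were seen, was 4, and 3 to 4 with 1 array left out, where Ctsl fell just short without KP(l) replicate 1. With 1 array left out, Ctsb ranged from -0.19 to 0.46, and -0.19, without KP(l) replicate 1, was the only reversal among 149 alternative values of the 10 genes, and the cause was not tested. Ctsa ranged from 2.95 to 3.74 and its limma adjusted p from 0.0785, with the array set as a block, to 0.953. The replicate number as a block gave 3 genes higher at that p (Ctsa, Ctsd and Lgmn), 1307 probe sets in all and 0 called. Same-numbered arrays had deviations that correlated at 0.0784, 0.0234 and 0.194, and differently numbered ones at -0.1245 to 0.0902. KP(l) replicate 3 gave 0.194 with nLung replicate 3, but -0.1245 and -0.1204 with nLung replicates 1 and 2. Deviations were centred within each group, so these correlations are not independent of one another. Whether deviations were shared between arrays of the 2 groups was not tested. The numbers were not taken as pairs in the main fit, and the blocks were kept as alternatives. The log2 ratio of linear means gave Ctsl 2.92 in place of 2.05. Ctsd had a nominal p of 0.00318 with the replicate block and 0.0202 with the array set block in limma, and limma adjusted p of 0.897 and 0.876. Signal over background was not given in the values used here.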
